A study of Homo sapiens with 3 samples.

Results

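Broad CREBBP peaks inside H3K27ac regions are the wide intervals of CREBBP signal that lie on acetylated chromatin in SC1, a human lymphoma cell line labelled as diffuse large B-cell lymphoma (DLBCL). They were selected by width and overlap: every peak of the deposited CREBBP list on chromosomes 1 to 22 and X that was 800 bp or wider and shared at least 1 bp with an interval of the deposited H3K27ac list. This rule took 1647 of 215598 CREBBP peaks, 0.764% (exact Clopper-Pearson 95% interval 0.728 to 0.802%). The H3K27ac list held 18263 regions. Both lists come from chromatin immunoprecipitation followed by sequencing (ChIP-seq) in SC1 cells, with 1 sample for the CREBBP antibody and 1 for the H3K27ac antibody. An input without antibody, the third sample, was not analysed here. The labels name no treatment and no edited gene, although the peak names carry the words DMSO and rep2, and all cells were grown in RPMI1640 medium with serum.

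CREBBP is a lysine acetyltransferase that is brought to promoters and enhancers by DNA-bound transcription factors and acetylates histones there. H3K27ac, acetylation of histone H3 at lysine 27, is one of its products and marks active promoters and enhancers. In germinal-centre B cells, from which many DLBCLs derive, CREBBP is known for keeping enhancers of B-cell genes acetylated, and its gene is often mutated in these lymphomas.

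There were no replicates, so no value has a replicate error and no difference below was tested. The intervals beside shares are Clopper-Pearson 95% intervals; they hold for counting error alone, as if the peaks were independent. Width and overlap chose the peaks, and width follows from the same CREBBP signal as fold, p, q and summit, so all of these values are descriptions. Positions are on hg19, counted from 1. No annotation of that build was used: where a gene is named for a position, the name is general knowledge of the locus. A RefSeq table of another assembly (GRCh38.p14) was used to look up the chromosome of 13 genes, which matched in 13 of 13. It also gave the order of the named histone genes. B-cell markers could not be looked up in the lists, because no annotation of their build was used.

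Broad CREBBP peaks lay on acetylated chromatin more often than narrower ones. Of the 9989 CREBBP peaks of 800 bp or wider, which were 4.63% of all CREBBP peaks, 1647 lay inside an H3K27ac region, 16.5% (15.8 to 17.2%). Among the 205609 narrower peaks 9256 did, 4.502% (4.41 to 4.59%), and over the whole list the share was 5.06%. Among peaks with q of at most 0.05 the shares were higher and closer to each other, 68.0% (65.0 to 71.0%) of 967 broad peaks and 52.7% (50.9 to 54.5%) of 2934 narrower ones. Over all peaks the share climbed with each class of width, from 2.76% of peaks under 300 bp to 8.72% from 600 bp to under 800 bp, 13.8% from 800 bp to under 1000 bp and 19.9% from 1000 bp to under 1500 bp. It was 28.7% (23.98 to 33.8%) from 1500 bp to under 2000 bp, and 23 of the 55 peaks of 2000 bp or more lay inside, 41.8% (28.7 to 55.9%). The share rose across all 9 classes of width, with no single step at 800 bp. A wider peak can meet a region more often by its length alone, and the part of this was not tested.

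**Figure D1:**
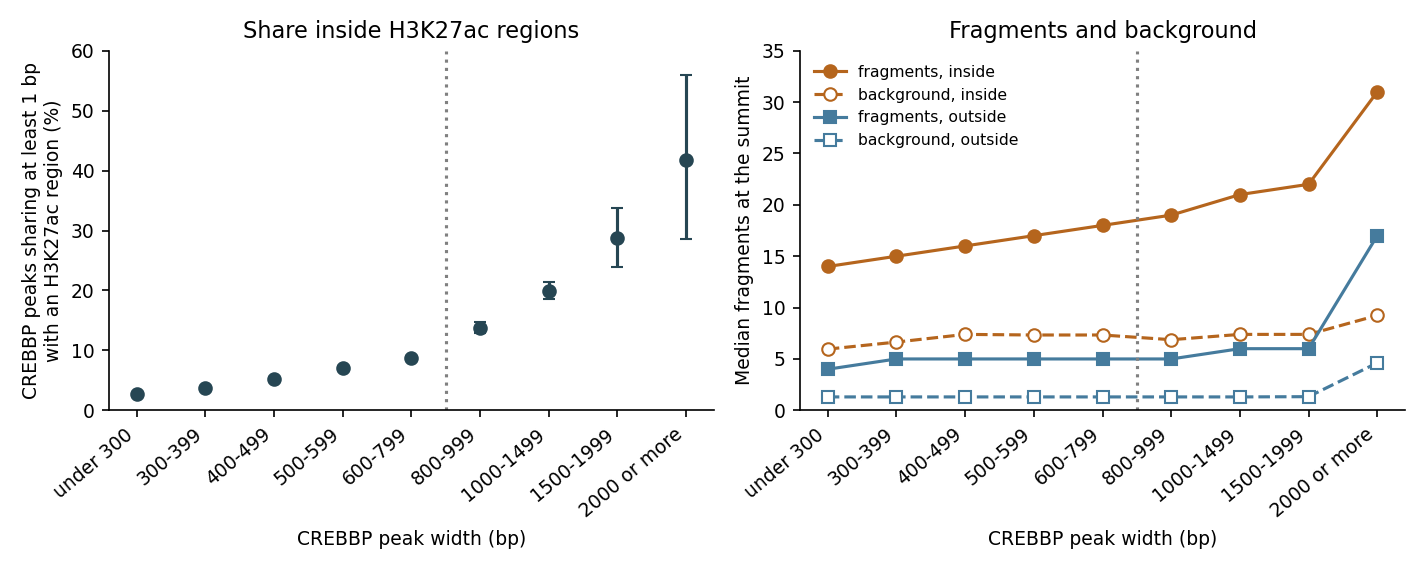
Left, share of CREBBP peaks that share at least 1 bp with an H3K27ac region, by peak width in bp, with exact 95% intervals; right, median fragments and median background at the summit, for peaks inside (orange) and outside (blue) H3K27ac regions. The dotted line marks 800 bp; the share climbs from 2.76% to 41.8%, and peaks inside have more fragments and a higher background than peaks outside in every width class.

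The median broad peak inside was 983 bp wide (interquartile range 878 to 1166 bp), and the widest spanned 3098 bp. A width of 1000 bp was reached by 776 of them (47.1%), 1500 bp by 122 (7.41%) and 2000 bp by 23 (1.40%). The 8342 broad peaks outside the regions were a little narrower, with a median of 929 bp (854 to 1066 bp), and 34.8% of them reached 1000 bp.

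At the edge of the rule, 3 peaks were named on each side, those of largest fold at that width, so they do not stand for all peaks there. Fragments are the number of ChIP fragments stacked at the summit. Of the 3 members of exactly 800 bp that were named by rule, the first, on chromosome 2 from 61067871 to 61068670, had 49 fragments at its summit and a fold of 4.14. The second, on chromosome 7 from 82188330 to 82189129, had 13 fragments, and the third, on chromosome 3 from 169482311 to 169483110, had 33. The 3 inside peaks that were 1 bp short of the minimum had 26, 32 and 8 fragments, at folds of 5.29, 3.32 and 3.16. In all, 52 members and 58 excluded inside peaks lay within 10 bp of the minimum. The overlap minimum mattered for few peaks: 2 members shared under 50 bp with their region, and 2 broad peaks outside ended within 50 bp of one.

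Broad peaks inside were built on more fragments than broad peaks outside, and they stood on a higher background. Background is the number of fragments expected at the summit, and both numbers were solved from the authors' fold enrichment and p. The median number of fragments was 20 in members (quartiles 12 and 27), and the median background was 7.39 (3.70 and 11.1). In broad peaks outside they were 5 (5 and 7) and 1.3045, the commonest background in the list, and 54.0% of those peaks stood at that value against 3.58% of members. The authors' fold enrichment, which divides by the background, had like medians in both sets, 2.56 inside and 2.60 outside.

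Of the members, 658 passed q of at most 0.05, 39.95% (37.6 to 42.4%), against 1.81% of all CREBBP peaks. The share was 16.7% (15.9 to 17.5%) among narrower peaks inside and 3.70% (3.31 to 4.13%) among broad peaks outside. It differed along the members' own widths: 34.9% under 1000 bp, 44.04% from there to under 1500 bp and 54.1% (44.8 to 63.2%) at 1500 bp or more. A −log10 q of 0 was listed for 364 members, 22.1%, which is a q of 1. The share was 63.4% among broad peaks outside and 47.0% among narrower peaks inside.

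Peaks were also set side by side at like background and at like fragment number. At backgrounds of 5 to 10 fragments, 557 members had a median of 20 fragments and 43.4% reached q of at most 0.05. The 3267 narrower inside peaks of that background had 16 fragments and 17.7%, and the 100 broad peaks outside had 15 fragments and 21%. At the commonest background, the lowest class, members were also higher, with 7 fragments for 59 members, 5 for narrower inside peaks and 5 for 4508 broad peaks outside. At backgrounds of 10 or more the order was reversed. From 10 to 20, 36 broad peaks outside had a median of 34.5 fragments and 55.6% reached q of at most 0.05. The 470 members there had 28 fragments and 39.6%. At 20 or more, 50 broad peaks outside had 192 fragments and 86%, against 54 fragments and 61.1% for 54 members. The intervals on these q shares overlap in both classes. Background also went with membership itself. Members were 1.29% of broad peaks in the lowest class, 47.6% at 3 to 5 fragments and 92.9% (90.3 to 95.0%) at 10 to 20, then 51.9% (41.9 to 61.8%) at 20 or more. The part of background in the share of broad peaks inside was not tested.

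At equal numbers of fragments, the intervals on the share of broad peaks inside and outside were apart from 6 to 11 fragments and overlapped at 4 or 5 and from 12 to under 60, the highest class compared. Among peaks of 6 or 7 fragments, 10.96% of those inside (8.77 to 13.5%) and 6.37% of those outside (6.14 to 6.60%) were 800 bp or wider. At 12 to 19 fragments the shares were 11.8% (10.8 to 12.9%) and 9.68% (8.34 to 11.1%). At 20 to 29 fragments they were 17.3% (15.98 to 18.8%) and 20.3% (15.1 to 26.3%). Only 212 peaks outside had that many fragments, against 2895 inside.

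Within the members, width went only weakly with any other measure. Across the 1647 members the Spearman rho of width was 0.12 with fragments (Pearson r 0.17), 0.13 with fold, 0.042 with background, 0.13 with the width of the H3K27ac region and 0.052 with its fold. The number of fragments had a rho of 0.84 with the background. In all, 8 pairs of measures were computed, all across peaks that share a library and its depth and are not independent replicates. Members were chosen by width, which narrows its range, and the part of this in the rho values was not tested. Over inside peaks of all widths, the median rose from 14 fragments under 300 bp to 31 at 2000 bp or more.

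A larger share of broad than of narrower peaks had the summit in the central part of the acetylated region. A summit is the position of highest CREBBP signal in a peak, and the rule asked only that some base of the peak be shared. The summit lay inside the H3K27ac region in 1553 members, 94.3% (93.1 to 95.4%), beside 94.1% of all CREBBP peaks inside. It lay in the central 50% of the region's width in 1159 members, 70.4% (68.1 to 72.6%), against 59.9% (58.9 to 60.9%) of narrower peaks inside and 61.5% of the 10903 inside peaks together. The median distance of the summit from the region's centre was 332 bp (order-statistic 95% interval 308 to 357.5 bp) for members and 357 bp (346 to 369.5 bp) for narrower peaks, with intervals that overlap. Of the summits inside, 119 of 1553 came within 200 bp of an edge, 7.66% (6.39 to 9.10%), against 14.04% (13.3 to 14.8%) for narrower peaks. The part of peak width itself in these shares was not tested.

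**Figure D2:**
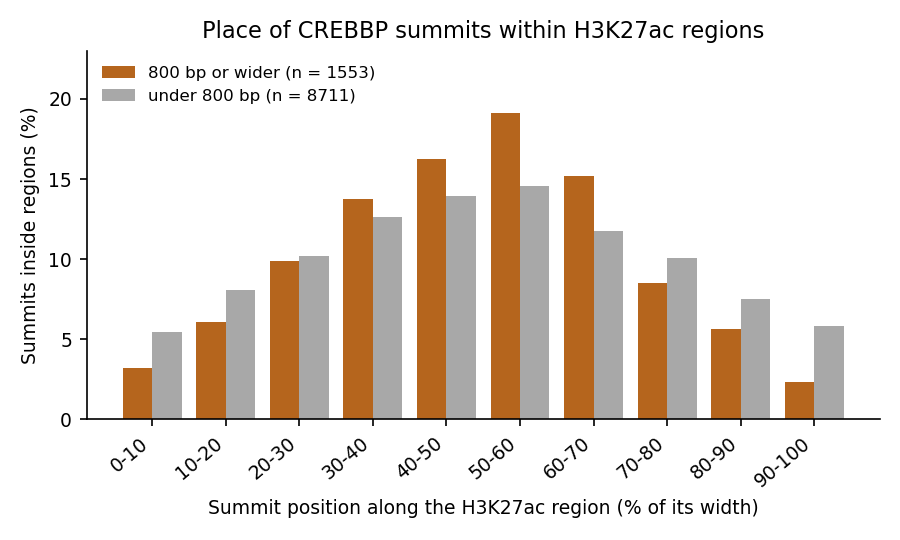
Position of CREBBP summits along the H3K27ac region, in 10 equal bins of its width from its lower to its higher coordinate, as percent of the summits inside regions. Broad peaks (orange, n = 1553) reach 19.1% in the bin from 50 to 60% and fall to 3.22% and 2.32% in the outermost bins; narrower peaks (grey, n = 8711) are flatter, with 5.46% and 5.85% there.

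Both ends of the region were alike. The lowest 10% of the region's width held 50 summits of broad peaks and the highest 10% held 36, while the bins on either side of the centre held 252 and 297. On a scale from 0 at the lower edge to 1 at the higher, the median place was 0.504 for members and 0.497 for narrower peaks.

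A wide peak that lies wholly in a short region has little room to be off centre, so the comparison was repeated within classes of region width. Within a class a broad peak still has less room than a narrower one, and the part of this was not tested. In regions of 2 to 4 kb, 440 of 561 members had their summit in the central 50%, 78.4% (74.8 to 81.8%), against 61.8% (59.96 to 63.7%) of 2634 narrower peaks. In regions of 4 to 8 kb the shares were 69.9% (64.1 to 75.2%) of 282 members and 50.8% (48.1 to 53.5%) of 1332 narrower peaks. In regions of 8 kb or more they were 47.2% (37.5 to 57.1%) of 108 members and 46.5% (42.4 to 50.6%), with intervals that overlap. In regions under 1 kb the intervals also overlapped, at 40.5% (33.5 to 47.9%) of 190 members against 47.0% (44.3 to 49.7%), and the summit lay inside the region in 126 of the 190.

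**Figure D3:**
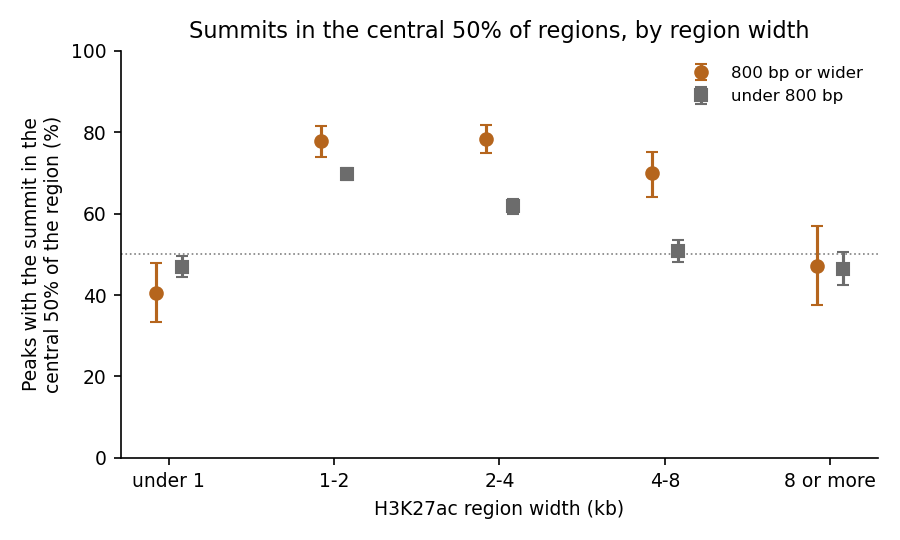
Share of peaks whose summit lies in the central 50% of the H3K27ac region, by region width in kb, for broad (orange) and narrower (grey) CREBBP peaks inside, with exact 95% intervals; the dotted line is at 50%. Broad peaks are higher from 1 to 8 kb (78.4% against 61.8% at 2 to 4 kb) and close to narrower peaks at 8 kb or more (47.2% and 46.5%).

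The order of the sets depended on the measure among peaks that passed q. With q of at most 0.05, the summit was in the central 50% in 74.3% (70.8 to 77.6%) of 658 members and in 68.3% (65.9 to 70.6%) of 1546 narrower peaks, with intervals just apart. In bp the order was reversed: the median distance from the centre was 363.75 bp (327 to 409 bp) for these members and 313.25 bp (290.5 to 339.5 bp) for these narrower peaks. Members had more fragments than narrower peaks throughout regions of 1 kb or wider, for example medians of 22 and 17 in those of 2 to 4 kb, and the part of this in the summit's place was not tested.

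Most broad peaks were contained in the region, though less often than narrower peaks. All bases lay inside it in 1138 members, 69.1% (66.8 to 71.3%), while 431 crossed an edge (26.2%) and 78 spanned the whole region (4.74%). Of narrower peaks inside, 79.2% (78.3 to 80.0%) lay wholly in the region and 0.854% spanned it. The median member covered 43.2% of its region (interquartile range 24.9 to 61.8%), against 19.4% for narrower peaks. Where a broad peak crossed an edge, a median of 79.6% of its bases lay inside, and its summit was inside in 366 of 431, 84.9% (81.2 to 88.2%). Of narrower peaks that crossed an edge, 71.6% had the summit inside with a median of 65.8% of bases there.

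Within a broad peak the summit was not confined to the middle. It fell in the central 50% of the peak's own width in 55.4% (53.0 to 57.9%) of members, against 64.2% (63.2 to 65.2%) of narrower peaks inside and 46.8% (45.7 to 47.9%) of broad peaks outside. A summit placed evenly along a peak would do so in 50% of peaks.

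In the remaining members the summit lay off the acetylated region. The farthest was 881 bp away, in the peak on chromosome 3 from 171818990 to 171820571, which spanned an H3K27ac region of 284 bp and had 12 fragments over a background of 5.54. The peak on chromosome 13 from 62878413 to 62879687 had its summit 834 bp outside a region of 901 bp, with 7 fragments. The peak on chromosome 2 from 135016441 to 135017883 had its summit 793 bp outside a region of 3438 bp, with 10 fragments over 1.88 and 10.2% of its bases inside. All 3 had fewer fragments than the median of 20. Not all members with the summit outside did: the peak on chromosome 10 from 42392219 to 42394638 had 927.

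Seen from the mark, 1592 H3K27ac regions held a broad CREBBP peak, 8.72% (8.31 to 9.14%) of all regions and 17.8% (17.02 to 18.6%) of the 8940 that held any CREBBP peak, which were 49% of all regions. Their median width was 2174 bp (interquartile range 1496 to 3650 bp). Regions with narrower peaks alone had a median of 1700 bp and regions with no CREBBP peak 1160 bp. A wider region can meet more peaks by its length alone. In the narrowest decile, with a median of 377 bp, 55 of 1827 regions held a broad peak, 3.01% (2.28 to 3.90%), and in the widest, with a median of 4938 bp, 427 of 1827 did, 23.4% (21.4 to 25.4%).

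The height of the acetylation signal went with broad peaks far less than its width. By decile of H3K27ac fold the share was 4.76% (3.83 to 5.84%) in the lowest, highest in the sixth at 11.1% (9.66 to 12.6%) and 7.22% (6.08 to 8.51%) in the highest. Among regions of 2 to 4 kb it was 13.2% (11.4 to 15.2%), 15.4% (13.5 to 17.5%) and 14.5% (12.7 to 16.6%) in the lower, middle and upper of 3 equal groups by fold, and those intervals overlap.

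**Figure D4:**
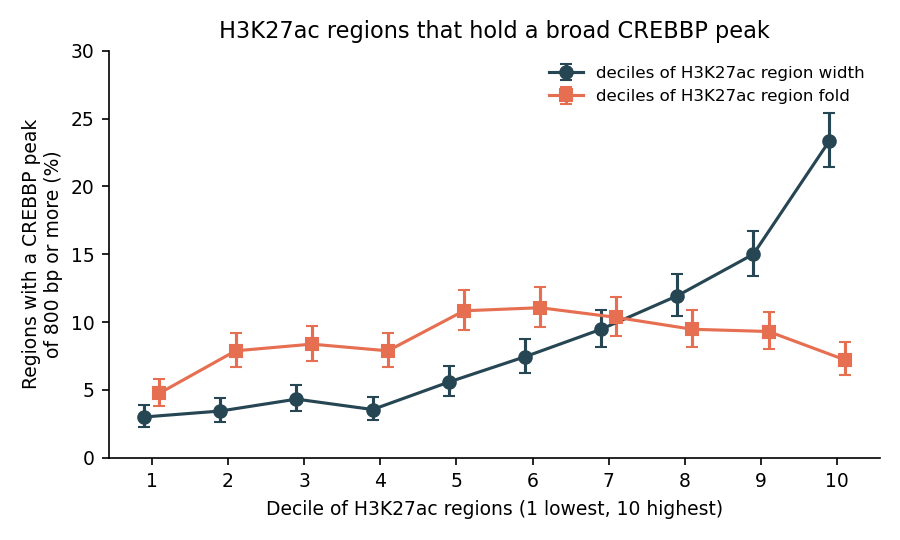
Share of H3K27ac regions that hold a CREBBP peak of 800 bp or wider, by decile of region width (dark circles) and of region fold enrichment (orange squares), with exact 95% intervals. The share runs from 3.01% to 23.4% over the width deciles and stays between 4.76% and 11.1% over the fold deciles.

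A broad peak was most often alone. In 1548 of the 1592 regions there was 1 broad peak, in 36 there were 2, in 7 there were 3, and 1 region held 6. Another CREBBP peak of any width shared the region with 469 members (28.5%). In the 392 regions that held both a broad and a narrower peak, the broad peak with the smallest p was compared with the narrower one of smallest p in the same region. The broad peak had more fragments in 276 regions, 70.4% (65.6 to 74.9%), with medians of 20 and 14. Its summit was nearer the region's centre in 247, 63.0% (58.0 to 67.8%), with median distances of 855 and 1109 bp. In such pairs region width and H3K27ac fold are the same for both peaks. Peak width still differs, and its part in the summit's place was not tested.

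The widest broad peaks were spread over the genome, with 23 members of 2000 bp or more on 13 chromosomes. Of the 23, 6 (26.1%) lay in 2 stretches known for histone genes. Chromosome 6 carried 131 members, 12.7 per 100 H3K27ac regions, the highest ratio of the 23 chromosomes, and chromosome 19 the lowest at 5.46. Of the 6, 4 lay on chromosome 6 between 26 and 28 Mb and 2 in a 1 Mb window of chromosome 1 that holds members from 149223735 to 149859509. Both stretches are known for clusters of replication-dependent histone genes, which supply the histones of new chromatin in S phase. No list of histone gene positions was tested.

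The chromosome 6 stretch held 34 broad peaks in 20 of its 52 H3K27ac regions, 38.5% (25.3 to 53.0%), and 23 of the 34 reached q of at most 0.05. Their median width was 1332 bp, and their fragments ran from 7 to 55 with a median of 31.5 over a median background of 10.2. The chromosome 1 window held 9 broad peaks in 7 of 16 regions, 43.75% (19.8 to 70.1%), and all 9 reached that q, with 33 to 85 fragments. These stretches were picked out after their counts were seen, so their excess over the 8.72% of all regions is a description. They also hold very wide regions, of up to 33.5 kb on chromosome 6 and 18.6 kb on chromosome 1. Over the genome, 23.4% of regions in the widest decile and 30.1% (24.5 to 36.1%) of those of 8 kb or more held a broad peak. The part of region width in the excess was not tested. Every member's summit in both stretches lay inside the H3K27ac region.

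The widest of all members, 3098 bp on chromosome 1 from 149856412 to 149859509, had 37 fragments over a background of 12.01. The H3K27ac region, 4765 bp wide at a fold of 5.76, contained all of it, and its summit was 42.2% of the way along. The position is known for H2BC21 and H2AC20, adjacent genes for histones H2B and H2A with no protein-coding gene between them in the RefSeq table. The second, 2749 bp on chromosome 6 from 26156427 to 26159175, had 40 fragments over 12.9 and lay wholly inside a region of 5939 bp. The position is known for H1-4, which encodes a linker histone, and H2BC5 is the protein-coding gene next to it in the RefSeq table. No annotation was used to place the summit on either gene.

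The fourth and the sixth also lay in these clusters. The fourth, 2564 bp on chromosome 1 from 149811673 to 149814236, had 53 fragments, a fold of 4.501 and 2 broad neighbours in the same region of 18.6 kb. The sixth, 2467 bp on chromosome 6 from 27833028 to 27835494, had 38 fragments and shared a region of 11.4 kb with 2 other broad peaks. Neither summit was central, at 16.4% and 22.8% of the way along.

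The other wide members lay at single loci. The third, 2584 bp on chromosome 12 from 92537772 to 92540355, had 23 fragments over 8.02 and a −log10 q of 1.60, and 91.0% of it lay inside a region of 3576 bp. This is the start of BTG1, an antiproliferative gene that is often mutated in B-cell lymphoma. The fifth, 2516 bp on chromosome 20 from 55963963 to 55966478, had 26 fragments over 10.2, next to the start of RBM38, which encodes an RNA-binding protein. The ninth, 2381 bp on chromosome 3 from 31573161 to 31575541, covered 83.4% of its region at the start of STT3B, a subunit of the oligosaccharyltransferase that glycosylates proteins. It had 33 fragments over 14.4.

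The tenth lay with others at a microRNA locus. The tenth, 2319 bp on chromosome 17 from 56414464 to 56416782, had 42 fragments and a fold of 3.85. Its region of 12.4 kb held 2 more broad peaks, one at 56404896 to 56407081 with 25 fragments, the other at 56409673 to 56410946 with 60. This is the locus of MIR142, a microRNA of blood cells. All 3 reached q of at most 0.05.

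The seventh and the eighth stood apart from the rest. The seventh, 2458 bp on chromosome X from 2547431 to 2549888, had 11 fragments over 3.70 and a −log10 q of 0.21. The eighth, 2420 bp on chromosome 10 from 42392219 to 42394638, had 927 fragments over a background of 304, the highest of all members, the next having 165 fragments. Its summit lay 614 bp outside an H3K27ac region of 954 bp, and 10.2% of its bases were shared. It is next to the centromere of chromosome 10, a stretch of repeats.

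**Figure D5:**
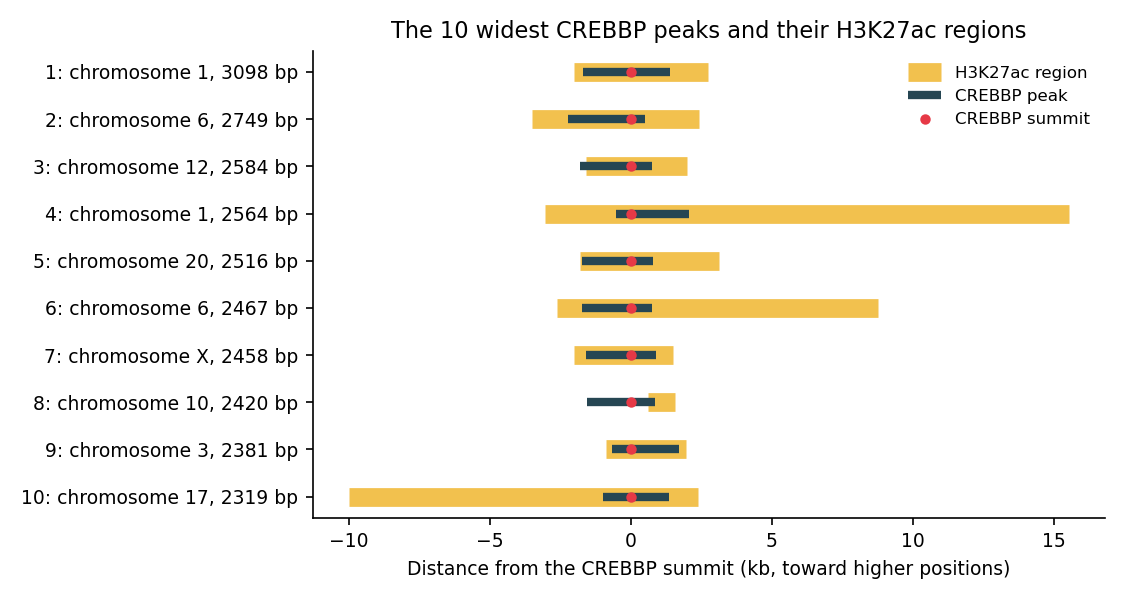
The 10 widest CREBBP peaks inside H3K27ac regions (dark bars), their H3K27ac regions (yellow) and summits (red), each drawn to scale in kb from the CREBBP summit. In 8 of 10 the whole peak lies inside the region; on chromosome 12 91.0% does, and on chromosome 10 10.2% with the summit outside.

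The region with the most broad peaks also lay in the chromosome 6 cluster. It spanned 33.5 kb (27774440 to 27807930) at a fold of 4.07 for H3K27ac and held 6 broad peaks that covered 26.3% of it. They had 34, 29, 34, 39, 55 and 17 fragments in order of position, and widths from 874 to 2080 bp. The first 5 reached q of at most 0.05 and the last did not. Another region there, 21.3 kb from 27094643 to 27115895, held 3 broad peaks with 29, 28 and 34 fragments, of which the last reached that q.

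Of the members with the 5 largest folds, none was among the 10 widest, while the smallest q of all, with a −log10 q of 174.6, was that of the eighth widest on chromosome 10. The largest fold, 11.4, belonged to a peak of 1706 bp on chromosome 14 from 106327709 to 106329414 with 126 fragments over 10.2. Its summit was 290 bp from the centre of an H3K27ac region of 3603 bp. The position adjoins IGHJ6, the last of the heavy-chain joining genes, next to which lies the intronic enhancer that drives immunoglobulin expression in B cells.

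The heavy-chain stretch of chromosome 14, a 1 Mb window, held 8 broad peaks from 106032084 to 106812020. Apart from the one at the joining genes, 3 exceeded 100 fragments. The first, which ended at 106033148, had 138 fragments at a fold of 5.001. The next, from 106041228 to 106042392, had 139 at 4.84, and the last of the 3, from 106152097 to 106153487, had 128 at 5.34. The other 4 had 70, 23, 10 and 11 fragments, and none reached q of at most 0.05. The backgrounds of the 8 ran from 2.75 to 46.2, and 4 exceeded 20.

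Small RNA genes were among the largest folds and smallest q values. The third largest fold, 10.4, was on chromosome 11 from 62608390 to 62609467, with 144 fragments over 12.9 and a −log10 q of 90.8. This is the position of RNU2-2, a gene for a spliceosomal RNA. The fifth, 9.67, was on chromosome 17 from 8076314 to 8077263, with 45 fragments over 3.76, at SNORD118, a gene for a small nucleolar RNA. It covered 98.8% of a short H3K27ac region of 518 bp. The fourth smallest q was on chromosome 1 from 16839979 to 16841018, with 165 fragments over 22.2, at RNU1-1, a gene for another spliceosomal RNA. The stretch from 16 to 18 Mb there held 5 broad peaks, with 43 to 165 fragments, and all 5 reached q of at most 0.05.

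The remaining peaks named by fold or q have no gene given here. The second largest fold, 10.9, was on chromosome 4 from 43912271 to 43913294, with 40 fragments over 2.77. The fourth, 9.98, was on chromosome 3 from 88482713 to 88484200, with 22 fragments over the commonest background of 1.3045, and its summit was 58 bp from the edge of a region of 1639 bp. The fifth smallest q was on chromosome 7 from 142505964 to 142507231, with 105 fragments over 12.9.

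A tandem array held a group of similar broad peaks. On chromosome 1 from 228746041 to 228782353, a stretch of 36.3 kb, lay 8 broad peaks and 7 narrower ones in 14 H3K27ac regions whose starts were a median of 2274 bp apart. The position is that of the array of 5S ribosomal RNA genes. The 8 peaks were much alike, with 46 to 55 fragments over backgrounds of 18.5 to 31.4 and folds of 1.54 to 2.41, and 3 of them reached q of at most 0.05. Their H3K27ac regions were short, 344 to 1062 bp, and the summit lay inside the region in 3 of 8. The share was 94.3% of all members. It was 66.3% (59.1 to 73.0%) of the 190 members in regions under 1 kb, which include some of these 8. How reads that fit several copies of a repeat were placed is not given in the sources used here.

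A further 3 broad peaks on chromosome 1 were also evenly spaced. They started at 161416917, 161424276 and 161431723, so 7359 and 7447 bp apart, and had 126, 153 and 142 fragments over backgrounds of 62.8 to 85.0. Their widths were 1296, 1323 and 1300 bp. Backgrounds of 20 or more were found at 54 members in all, 3.28% (2.47 to 4.26%), and of those 54, 7 lay in the 5S array and 3 here.

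The CREBBP gene itself carried a broad CREBBP peak at its start. The peak, 1030 bp on chromosome 16 from 3929646 to 3930675, had 20 fragments over 3.90, a fold of 4.29 and a −log10 q of 4.62. Its H3K27ac region, 2034 bp wide, contained all of it and had a fold of 1.64, below the median of 5.27 for regions that held a broad peak. This peak was chosen after its values were seen.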

How the data were processed

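CREBBP and H3K27ac ChIP-seq in SC1 cells gave 1 deposited list each. The tools, per the submitters' processing notes, were MACS2, Bowtie2, fastp and STAR, with build hg19. Not given in the sources used here are their roles, versions and settings, the control library and any pooling. For each interval the deposited lists hold a score, the authors' fold enrichment (a ratio) and −log10 of p and q; CREBBP peaks also have a summit offset. The authors' score equalled the whole part of 10 times −log10 p for all 215726 CREBBP peaks, and the smallest −log10 p was 1.302. Values of different lists were not compared. Outside chromosomes 1 to 22 and X, 128 CREBBP peaks and 17 H3K27ac regions were left out. No intervals within a list overlapped, and no member met more than 1 region.

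Depth is not stated. Fragments k and background b were solved from fold = (k + 1)/(b + 1) and p as the Poisson chance of more than k. A whole k matched −log10 p within 0.001 for all 1647 members, with no second match, and for 99.99% of all peaks. Both are inferences at the summit. Where the values fell outside a match, the nearest k was kept.

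Members, lists and named loci were chosen with earlier results of these data known. Named by rule were the 10 widest members, the 5 largest folds, the 5 smallest q values, 3 on each side of 800 bp, the 3 regions with most members and the 3 farthest summits; other positions were chosen after their values were seen. Medians in the sensitivity part carry exact binomial order-statistic intervals. Alternatives were widths of 600 and 1000 bp, 50% overlap, summit overlap, q of at most 0.05, the upper 50% of H3K27ac regions by q, joining CREBBP peaks within 250 bp and leaving out backgrounds of 20 or more; the share of narrower peaks inside at q of at most 0.05 was added after seeing the data. Python 3.11.15, numpy 2.4.6, pandas 2.3.3, scipy 1.17.1 and matplotlib 3.10.9 were used. The overlap code, tested on simulated data, was right for 4000 of 4000 intervals, the summit code for 2658 of 2658 and the fragment solution for 998 of 998.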

Additional observations from a re-analysis of the deposited data

How the results depend on the processing

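Of 62 values recomputed under the 8 alternatives, 27 stayed within the 95% interval of the reported value (counts: within 1.5 times) and 35 moved, all of them without a test. Joining CREBBP peaks within 250 bp and leaving out backgrounds of 20 or more moved none. With a minimum width of 600 bp, 3264 broad peaks lay inside (11.4% of all that wide), 68.0% had the summit in the central 50% of the region, 34.99% reached q of at most 0.05, and 16.98% of regions, with a median width of 2061 bp, held one. With 1000 bp, 776 lay inside (21.1%), the median was 21 fragments, 45.6% reached that q, and 4.13% of regions, of 2367 bp, held one. With 50% of the peak inside, the share inside was 15.2%, 97.8% of summits were inside and 74.4% central, the median was 21 fragments, and 8.04% of regions, of 2307.5 bp, held one. With the summit inside, the share was 15.5%, 74.6% of summits were central, and 8.21% of regions, of 2259 bp, held one. With CREBBP peaks of q at most 0.05, 658 lay inside, which was 68.0% of broad peaks of that q (65.0 to 71.0%), 97.7% of summits were inside and 74.3% central, the median was 26 fragments, and 3.49% of regions, of 2577 bp, held one. Restricting H3K27ac to the upper 50% of regions by q, 911 lay inside (9.12%), the median was 21 fragments, 44.0% reached that q, and 9.60% of those regions, of 2346 bp, held one. Fewer peaks or regions enter most of these alternatives by construction; beyond that, the cause was not tested. In an alternative chosen after seeing the data, 52.7% of narrower peaks of q at most 0.05 lay inside, against 4.502% of all narrower peaks. The share of summits inside the region was 94.2 to 97.8% in all alternatives that did not require it. No paired analysis was possible because there were no replicate numbers, with 1 sample in each group. At the lowest background a peak of 3 or 4 fragments can be called, so widths there rest on few fragments.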
